A study of Mus musculus with 4 samples.

Results

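The 26S proteasome is the protease complex that degrades ubiquitin-tagged proteins in the cytoplasm and nucleus, and nascent transcription of the genes for its subunits and assembly factors was measured by PRO-seq. These genes were taken by name, as rows of the count table whose gene symbol begins with Psma, Psmb, Psmc, Psmd, Psme, Psmf or Psmg and a number, together with Pomp and Adrm1. The rule found 49 genes among the 12486 of the table, and used no measured value. PRO-seq lets RNA polymerase extend the RNA it holds in isolated nuclei, and each count reports polymerase engaged on a gene, not the amount of finished mRNA or of protein. There were 2 libraries of control cells at 0 h, which the protocol describes as untreated although their treatment label also names IAA, and 2 libraries of cells after 6 h of 500 µM IAA (indole-3-acetic acid, an auxin), labelled as biological replicates. All 4 came from AID-Zfp574 cells, diploid mouse embryonic stem (mES) cells of the line named AN3-128 in the labels and AN3-12 in the study's methods, derived from the haploid line HMSc2 and grown without feeders in serum with LIF, in which the zinc-finger protein Zfp574 carries an N-terminal auxin-inducible degron (AID). The controls therefore carry the same tag and the same EF1a-driven cassette encoding ARF16, the rice E3 ligase adaptor OsTir1 and mCherry, from a parental line that was a single clone. Cells with the cassette but no tag on Zfp574, treated with auxin, were not analysed here, so the loss of Zfp574 and the exposure to auxin cannot be told apart. The comparison asked whether transcription of the proteasome genes responds to the removal of Zfp574.

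The proteasome has a barrel-shaped 20S core, in which rings of alpha subunits gate the entry and rings of beta subunits carry the proteolytic sites, and a 19S cap, whose base unfolds substrates with a ring of ATPases and whose lid removes the ubiquitin chain. Dedicated chaperones assemble core and cap, and other activators or inhibitors can take the place of the cap. The complex contains its subunits in fixed ratios, and cells can raise the transcription of these genes together through Nfe2l1 (also called NRF1 or TCF11), a transcription factor that the proteasome itself degrades and that binds antioxidant response elements when proteasome activity falls. The degron used here also acts through the proteasome: auxin joins the tagged protein to OsTir1, and the protein is then ubiquitinated and degraded.

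Column totals lay between 3298864 and 6045216 counts, both depletion libraries being deeper than both controls, and intervals given below rest on the spread between libraries as well as on counting. Replicates differed by more than sampling noise (chi-square per degree of freedom 1.85 at 0 h and 1.49 at 6 h) and were kept as separate samples. Zfp574 itself had 80 and 130 counts at 0 h and 195 and 219 at 6 h, a log2 fold change of 0.25 (edgeR's quasi-likelihood test, Benjamini-Hochberg adjusted p = 0.406). The degron removes protein, so these counts do not check the depletion. Of 10 embryonic stem cell markers 9 were in the table, with summed levels of 4150 to 4280 CPM (counts scaled to a library size that TMM had adjusted) in the 4 libraries, and among them Utf1 was lower after depletion (log2 fold change -0.61, adjusted p = 0.00358 in the same edgeR fit). Markers of other lineages summed to at most 79.8 CPM in any library for neural ectoderm, 38.6 CPM for trophoblast, 14.2 CPM for primitive endoderm and 2.18 CPM for fibroblasts, none of those tested was called in either direction, and none of the 3 mesoderm markers was in the table. These sums are not divided by gene length, and the long genes Esrrb and Tfcp2l1 gave most of the stem cell sum. Pou5f1 had 83.2 and 96.1 CPM at 0 h. Neural ectoderm sums were 66.4 and 72.1 CPM at 0 h and 79.8 and 78.8 CPM at 6 h. Primitive endoderm sums lay the other way, 13.8 and 14.2 CPM against 12.1 and 12.1 CPM, and neither order was tested.

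Transcription of the proteasome genes differed little between the conditions with TMM scaling. This scaling places the bulk of genes near 0, so a change common to all genes would not be seen. Of the 49 genes, 44 passed the filter on low counts and were tested. At an adjusted p under 0.05 in edgeR's quasi-likelihood test, 1 of the 44 was lower after depletion, the catalytic subunit gene Psmb7 (2.27%, against 1.4% of the 11853 genes tested), and 0 were higher (against 1.11% of all genes). DESeq2 called 0 lower and 0 higher, beside 61 and 14 of all 11853 genes tested. With limma-voom 1 was lower and 0 higher, beside 170 and 151 of all genes. None reached this threshold with a change of at least 2-fold, which 0.321% of all genes did. At an unadjusted p under 0.05 there were 10 of the 44, 4 lower and 6 higher (22.7%, against 16.2% of all genes). Both depletion libraries lay outside both control libraries for 22 genes, a share of 50.0% against a background of 46.3% of all genes. They lay below the controls for 8 of these and above them for 14. All genes were not counted by direction for these libraries or for the unadjusted p. Neither split is therefore a result about the proteasome genes.

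The median log2 fold change of the 44 genes was 0.05, with quartiles of -0.11 and 0.14, beside -0.00 with quartiles of -0.13 and 0.11 for all genes tested. This median turned negative, -0.06, with the size factors recovered from the deposited DESeq2 table, which place the median of all genes at -0.11, and was -0.02 without depletion replicate 1. By sign, 19 of the 44 lay below 0 (43.2%, beside 50.6% of all genes) and 25 above it, against 27 below and 17 above with the recovered factors. The difference between the members' median and that of all genes was 0.05 under each of the 4 scalings tried. A change of scaling shifts all genes by nearly the same amount, so this difference could hardly move and is no check of the result. Summed over the 49 genes the signal was 3052 and 3064 CPM at 0 h and 3160 and 3099 CPM at 6 h, means of 3058 ± 8.33 and 3130 ± 43.0 CPM (SD, n = 2). The log2 ratio of these sums was 0.03, and the genes took 0.307% to 0.311% of all counts in each library. In bulk libraries a change in the number of cells transcribing a gene and a change in the transcription of each cell cannot be told apart.

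How large a change the data leave room for is given by the intervals. The 95% interval of the log2 fold change lay inside -1 to 1, less than a 2-fold change either way, for 43 of the 44 genes (93.0% of all genes), and the exception was Psmc3ip, which encodes no proteasome subunit. It lay inside -0.5 to 0.5 for 32 of them (65.8% of all genes). From the estimate to either end of its interval the distance was 0.23 at the median, from 0.10 for the deeply covered Psme4 to 0.85 for Psmd10.

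**Figure D1:**
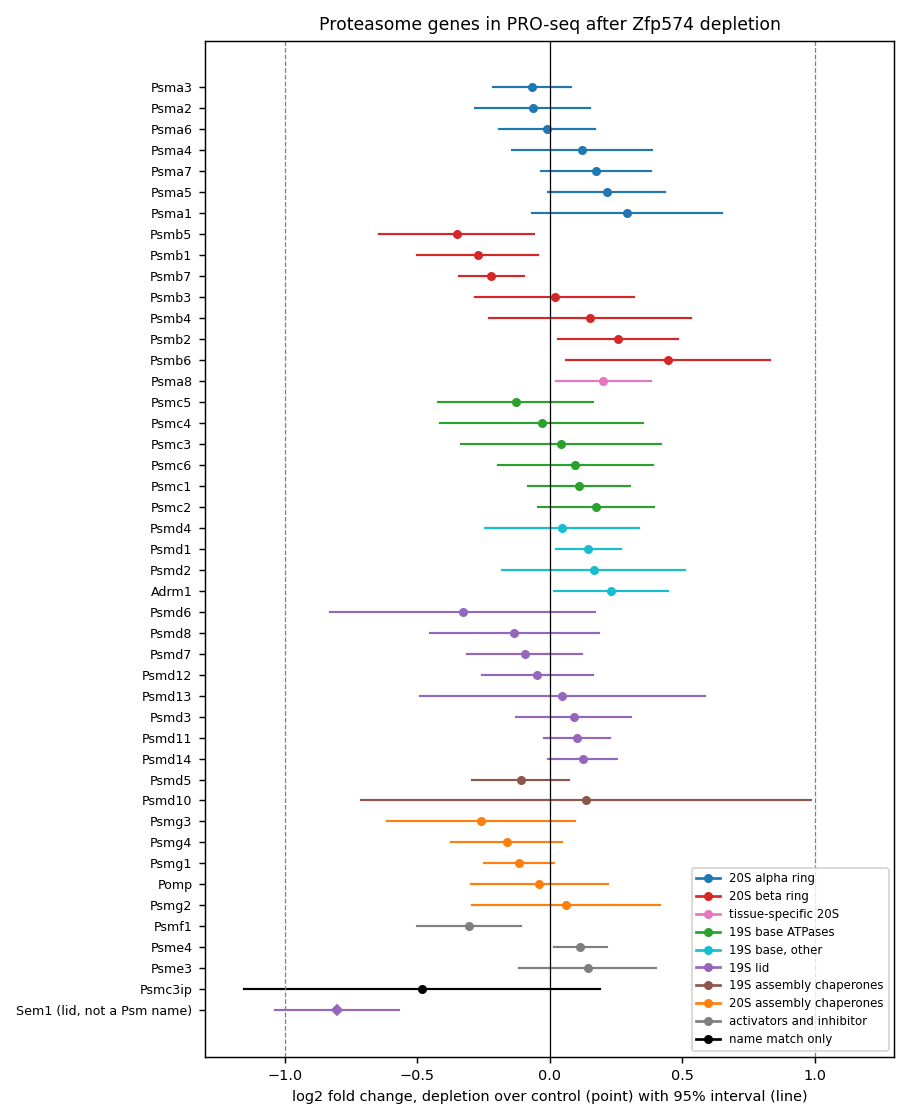
Log2 fold change (depletion over control, x axis) of the 44 tested proteasome genes and of the lid gene Sem1 (y axis), with 95% intervals as lines and colours for the role of the product. Dashed lines mark 2-fold changes. The interval of 43 of the 44 genes lies between them, with Psmc3ip as the exception, and points shift by about -0.10 with the recovered size factors, which turns the median of the group negative.

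Genes of the 20S alpha ring, Psma1 to Psma7, were all tested and none was called. Their products form the outer rings, whose N termini close the pore until an activator docks. Their log2 fold changes ranged from -0.07 (Psma3) to 0.29 (Psma1), with a median of 0.12 that was 0.02 with the recovered size factors. Psma1 had 17.7 and 13.4 CPM at 0 h and 19.5 and 18.3 CPM at 6 h. Psma5 had 50.2 and 41.8 CPM against 52.9 and 53.4 CPM, a log2 fold change of 0.21 (edgeR's quasi-likelihood test, adjusted p = 0.330). For both of these genes, and for Psma7, the depletion libraries lay above the controls, but by less than the model's error allowed to call. Psma6, at 71.5 and 73.1 CPM against 72.6 and 71.0 CPM, was the closest to 0 among the alpha genes with a log2 fold change of -0.01 (95% interval -0.19 to 0.17). Summed over the ring, levels were 413 and 392 CPM at 0 h and 419 and 407 CPM at 6 h, and the groups overlapped.

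The 20S beta ring showed the widest range among the roles with more than 1 gene tested, from -0.35 to 0.45, and held the only call. Of its 7 genes, Psmb5, Psmb6 and Psmb7 encode the subunits with active sites, which cut after hydrophobic, acidic and basic residues respectively, and the other 4 encode subunits without one. The 3 catalytic genes differed in sign. Psmb7 (ENSMUSG00000026750, chromosome 2, 38588036 to 38644087, minus strand, mm10) had 760 and 851 counts at 0 h and 1185 and 1102 counts in the deeper libraries at 6 h, which is 228 and 232 CPM against 199 and 196 CPM. Both depletion libraries were below both controls. It fell by 14.2%, a log2 fold change of -0.22 (standard error 0.06, 95% interval -0.34 to -0.10; edgeR's quasi-likelihood test, Benjamini-Hochberg adjusted p = 0.0421). The call was lost in DESeq2 (log2 fold change -0.22, adjusted p = 0.860) and when any of the 4 libraries was left out, where the log2 fold change was between -0.23 and -0.21 and the adjusted p between 0.0579 and 0.332.

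Psmb5, the chymotrypsin-like subunit and main target of the drug bortezomib, had 93 and 92 counts at 0 h and 126 and 114 at 6 h. These are 27.9 and 25.1 CPM against 21.2 and 20.3 CPM, so that the depletion libraries lay below the controls. Its log2 fold change of -0.35 (standard error 0.14, 95% interval -0.64 to -0.06) did not pass the threshold (edgeR's quasi-likelihood test, adjusted p = 0.210). Psmb6, the caspase-like subunit, had 40 and 41 counts against 99 and 84, or 12.02 and 11.2 CPM against 16.6 and 14.9 CPM. Here the depletion libraries lay above the controls. This was the largest log2 fold change among the tested genes in the upward direction, 0.45 (standard error 0.19, 95% interval 0.06 to 0.83), and rested on the lowest counts of the catalytic genes (adjusted p = 0.224 in the same edgeR fit).

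The bases before the start of these 2 catalytic genes are shown, with the core of the antioxidant response element, TGACNNNGC, in capitals. This core was in 17.1% of the proteasome genes with a promoter window, beside 16.9% of genes. Neither of the 2 genes was called, so their difference in sign says nothing of the element. The stretches are read 5′ to 3′ on the strand of the gene and end at the base before the RefSeq start (GRCm38.p6, the assembly of mm10).
Psmb5, chr14:54617996-54618095, minus strand: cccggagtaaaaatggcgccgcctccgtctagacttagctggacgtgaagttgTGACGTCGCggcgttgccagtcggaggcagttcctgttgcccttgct
Psmb6, chr11:70525257-70525356, plus strand: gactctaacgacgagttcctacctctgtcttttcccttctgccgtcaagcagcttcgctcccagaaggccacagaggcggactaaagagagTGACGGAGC
The match lies 47 to 39 bases before the start of Psmb5 and 9 to 1 bases before that of Psmb6. A match of letters is a description and says nothing of whether a factor bound there.

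Among the beta genes without an active site, Psmb1 (whose start lies within 1000 bp of that of Tbp, the gene of the TATA-binding protein, transcribed the other way) had 47.5 and 49.9 CPM at 0 h and 37.5 and 43.4 CPM at 6 h. Its log2 fold change was -0.27 (95% interval -0.50 to -0.04) and missed the threshold (edgeR's quasi-likelihood test, adjusted p = 0.213). With the recovered size factors it was called lower, at -0.38 (adjusted p = 0.0377). Psmb2 had 40.6 and 48.6 CPM against 50.7 and 56.4 CPM, a log2 fold change of 0.26 (95% interval 0.03 to 0.49, adjusted p = 0.232 in the same fit). Psmb3 and Psmb4 had libraries that overlapped between the conditions, with log2 fold changes of 0.02 and 0.15. The sum over the ring, of which Psmb7 is the largest term, was 397 and 406 CPM at 0 h and 370 and 369 CPM at 6 h. The median over the 7 genes was 0.02 and became negative with column totals (-0.02) and with the recovered size factors (-0.09).

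**Figure D2:**
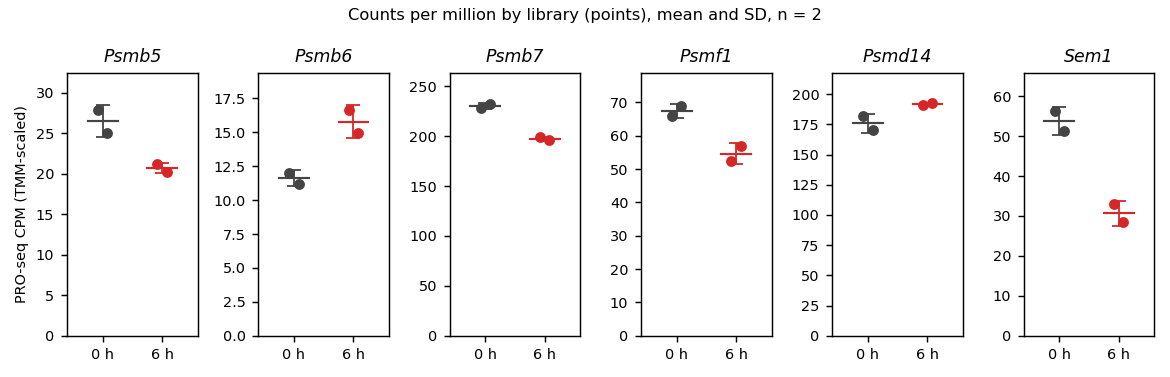
PRO-seq level in CPM (y axis, from 0) of the 3 catalytic beta genes, of Psmf1, and of the lid genes Psmd14 and Sem1 in each library (points) at 0 h and after 6 h of auxin (x axis), with the mean and SD (n = 2). Depletion libraries lie below the controls for Psmb5, Psmb7, Psmf1 and Sem1 and above them for Psmb6 and Psmd14, and of these 6 genes Psmb7 and Sem1 passed the test.

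Inducible and tissue-specific core subunits had few counts in these cells, apart from Psma8. Psmb9 and Psmb10 replace catalytic subunits in the immunoproteasome, which interferon induces, and Psmb11 belongs to the proteasome of thymic cortical epithelium. Counts were 1, 6, 10 and 7 for Psmb9 (controls first), 7, 2, 11 and 20 for Psmb10 and 3, 6, 10 and 4 for Psmb11. None of them passed the filter, and a difference between the conditions was not detectable at this depth. Psmb8 was not analysed here. Psma8, an alpha subunit that replaces Psma7 in the testis, had 231 and 251 counts at 0 h and 463 and 455 at 6 h, or 69.4 and 68.5 CPM against 77.8 and 81.0 CPM. Both depletion libraries lay above the controls, with a log2 fold change of 0.20 (95% interval 0.02 to 0.38; edgeR's quasi-likelihood test, adjusted p = 0.234). Per kb of gene, Psma8 stood at 1.23 ± 0.0115 CPM (SD, n = 2) in the controls, beside 8.42 ± 0.372 CPM per kb for its ubiquitous counterpart Psma7.

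In the base of the 19S cap, the 6 ATPase genes Psmc1 to Psmc6 encode the ring that unfolds substrates and threads them into the core. None was called. Their log2 fold changes lay between -0.13 (Psmc5) and 0.17 (Psmc2), the median being 0.07, or -0.03 with the recovered size factors. Psmc2 had 145 and 195 counts at 0 h and 324 and 310 at 6 h, or 43.6 and 53.2 CPM against 54.4 and 55.2 CPM, and was not called (edgeR's quasi-likelihood test, adjusted p = 0.452). Its control libraries differed from each other by more than its depletion libraries did. Summed over the 6 genes, levels were 183 and 198 CPM against 200 and 204 CPM, an order that was not tested.

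The other 4 genes of the base are the scaffolds Psmd1 and Psmd2 and the ubiquitin receptors Psmd4 and Adrm1. All had log2 fold changes above 0, from 0.05 to 0.23, with a median of 0.16. Among all genes tested 50.6% lay below 0. With the recovered size factors Psmd4 turned negative, at -0.06, and the median of the 4 was 0.05. None was called. Adrm1, a receptor that also docks the deubiquitinase Uchl5, had 43.0 and 43.7 CPM at 0 h and 51.2 and 50.5 CPM at 6 h. Replicates were close and the conditions did not overlap, and the log2 fold change was 0.23 (95% interval 0.02 to 0.45; edgeR's quasi-likelihood test, adjusted p = 0.263). Psmd1, the scaffold that carries Adrm1, had 213 and 216 CPM against 234 and 240 CPM. Its log2 fold change was 0.15 (95% interval 0.02 to 0.27, adjusted p = 0.213). Psmd4 had 29.5 and 29.7 CPM at 0 h and 34.9 and 26.0 CPM at 6 h, so that its replicates straddled the controls; its log2 fold change was 0.05, and -0.19 without depletion replicate 1. Together the 4 genes summed to 302 and 312 CPM at 0 h and 340 and 341 CPM at 6 h, an order that was not tested.

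Of the 19S lid, which removes ubiquitin chains, 8 genes were members and none was called. Log2 fold changes ran from -0.33 (Psmd6) to 0.12 (Psmd14), 4 below 0 and 4 above it, and 7 below 0 with the recovered size factors. Psmd14 encodes the deubiquitinase of the lid. It had 182 and 170 CPM at 0 h and 191 and 192 CPM at 6 h, a log2 fold change of 0.12 (95% interval -0.01 to 0.25; edgeR's quasi-likelihood test, adjusted p = 0.339). Psmd6, a structural subunit, had few counts, 34 and 29 at 0 h and 37 and 46 at 6 h, and its interval of -0.83 to 0.17 leaves room for a fall of over 1.5-fold. Psmd11, whose product helps to hold lid and core together and whose gene had the highest level per kb in the lid, had 311 and 338 CPM against 367 and 330 CPM, with overlapping libraries. The sum over the lid was 700 and 703 CPM at 0 h and 759 and 711 CPM at 6 h.

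A lid subunit whose gene has no Psm name, Sem1 (also called Dss1, a small acidic protein that also binds Brca2), stood apart from these 8. It is no member of the group and was in a list of proteasome-associated genes (ENSMUSG00000042541, chromosome 6, 6557294 to 6578663, minus strand, mm10). Sem1 had 187 and 188 counts at 0 h and 196 and 160 counts in the deeper libraries at 6 h, which is 56.2 and 51.3 CPM against 32.9 and 28.5 CPM. Both depletion libraries were far below both controls. It fell by 0.80 on the log2 scale (standard error 0.11, 95% interval -1.04 to -0.57), to 0.573 of the control level (edgeR's quasi-likelihood test, Benjamini-Hochberg adjusted p = 4.59e-05). Its interval does not meet that of any of the 8 lid members, apart from Psmd6, whose interval reaches -0.83, and the differences between Sem1 and these genes were not tested. The call held under each of the other scalings, tests, filters and designs and without each library, with log2 fold changes between -0.91 and -0.70. The 100 bases before its RefSeq start, shown because it had the clearest change among the genes of proteasome subunits, hold no match to the antioxidant response element core, whereas the 50 bases after the start, part of the window searched in all genes, hold one on the opposite strand.
Sem1, chr6:6578659-6578758, minus strand: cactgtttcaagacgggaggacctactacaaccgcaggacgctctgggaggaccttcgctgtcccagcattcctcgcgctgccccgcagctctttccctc

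Assembly factors were not called either. For the core, Psmg1 and Psmg2, and Psmg3 and Psmg4, work as pairs that build the alpha ring, and Pomp brings in the beta subunits. Of these 5 genes 4 had log2 fold changes below 0, beside 50.6% of all genes. Their median of -0.11 was negative under each of the 4 scalings and lowest with the recovered size factors (-0.22). A change of scaling shifts all genes nearly alike, so this is no check. For Psmg1, Psmg3 and Psmg4 the depletion libraries lay below the controls. Of all genes, 46.3% had libraries apart in either direction. Psmg1 had 179 and 174 CPM at 0 h and 168 and 158 CPM at 6 h, a log2 fold change of -0.11 (95% interval -0.25 to 0.02; edgeR's quasi-likelihood test, adjusted p = 0.400). Psmg3 had 20.4 and 16.4 CPM against 15.8 and 14.8 CPM, a log2 fold change of -0.26, and Psmg4 had 57.1 and 52.9 CPM against 49.7 and 48.4 CPM, at -0.16. Pomp had 29.8 and 31.9 CPM against 30.7 and 29.4 CPM, so that the libraries overlapped, and its log2 fold change of -0.04 (95% interval -0.30 to 0.22) changed sign without control replicate 2. The chaperones of the 19S base, Psmd5 and Psmd10, had log2 fold changes of -0.11 and 0.14. Psmd9, the other base chaperone, had 4 and 15 counts at 0 h and 4 and 12 at 6 h and was not tested.

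The alternative activators and the inhibitor differed in sign. Psme4 (PA200, a large nuclear activator that can cap the core in place of the 19S complex) was the most covered gene of the group, with 1672 and 1859 counts at 0 h and 3241 and 3088 at 6 h. These correspond to 502 and 507 CPM against 544 and 550 CPM. Replicates lay close together and the conditions did not overlap, but the log2 fold change of 0.12 (95% interval 0.02 to 0.22) was not called (edgeR's quasi-likelihood test, adjusted p = 0.228). Psme3, a nuclear activator of ubiquitin-independent degradation, had 32.2 and 28.4 CPM against 34.3 and 32.4 CPM, a log2 fold change of 0.14 (adjusted p = 0.630). Psme2, an interferon-induced activator, had 2, 2, 4 and 5 counts in the 4 libraries and was not tested, and Psme1 was not analysed here.

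Psmf1 encodes PI31, a protein that inhibits the core in vitro and helps to move and assemble proteasomes in cells. It had 219 and 252 counts at 0 h and 312 and 319 at 6 h, or 65.8 and 68.8 CPM against 52.4 and 56.8 CPM. Both depletion libraries lay below the controls. With a log2 fold change of -0.30 (standard error 0.10, 95% interval -0.50 to -0.11) it came next after Psmb7 by its p-value (edgeR's quasi-likelihood test, adjusted p = 0.0915). Psmf1 was called lower with the recovered size factors (log2 fold change -0.41, adjusted p = 0.00780) and with the replicate number as a block (-0.30, adjusted p = 0.0457).

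Psmc3ip meets the name rule but encodes a partner of the recombinases of meiosis and no proteasome subunit. It had 23 and 15 counts at 0 h and 27 and 18 at 6 h, 6.91 and 4.09 CPM against 4.54 and 3.20 CPM. Its log2 fold change of -0.48, the lowest of the 44, had a 95% interval of -1.15 to 0.19, and the libraries overlapped (edgeR's quasi-likelihood test, adjusted p = 0.505). Without it the median of the group was 0.05 and the count of calls was the same.

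Polymerase density differed widely among the genes. As CPM per kb of annotated gene, control levels among the tested genes spanned 54.7-fold, from 16.0 ± 0.3004 (SD, n = 2) for Psmg1 to 0.293 ± 0.00444 for Psmd10. Psmg1 and Psmd10 encode assembly chaperones. Among the genes of subunits, whose products are joined in fixed ratios, levels ran from 9.02 (Adrm1) to 0.385 (Psmd13). Adrm1 (9.02 ± 0.102), Psma7 (8.42 ± 0.372), Psmd11 (7.27 ± 0.425) and Psmb5 (6.80 ± 0.514) followed Psmg1, and of these neighbours Psmd11 and Psmb5 lay within their summed SDs of each other. Among the catalytic genes, Psmb6 stood at 4.66 ± 0.236 and Psmb7 at 4.11 ± 0.0487 CPM per kb. At the lower end, Psmd13 (0.385 ± 0.0345), Psma2 (0.913 ± 0.0887) and Psmd6 (1.03 ± 0.185) followed Psmd10. The level of Psma2 was divided by a gene model of 61.0 kb that another gene overlaps on the same strand. Longer genes tended to have lower levels per kb (Spearman correlation -0.314 across the tested genes), so the ranking depends on the annotated lengths. By the study's methods counts cover the full transcript, so polymerase near the start is not separated from that in the body. The levels are averages over a gene and not rates of transcription. The order was nearly the same after depletion, with a Spearman correlation of 0.985 across the 44 genes between the group means, which is a description, since genes are not replicates and the libraries share each gene's length and mappability. Annotated lengths may differ from the transcripts the authors counted over, and proteasome genes have processed copies elsewhere in the genome that can take exonic reads out of a count of uniquely placed reads.

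**Figure D3:**
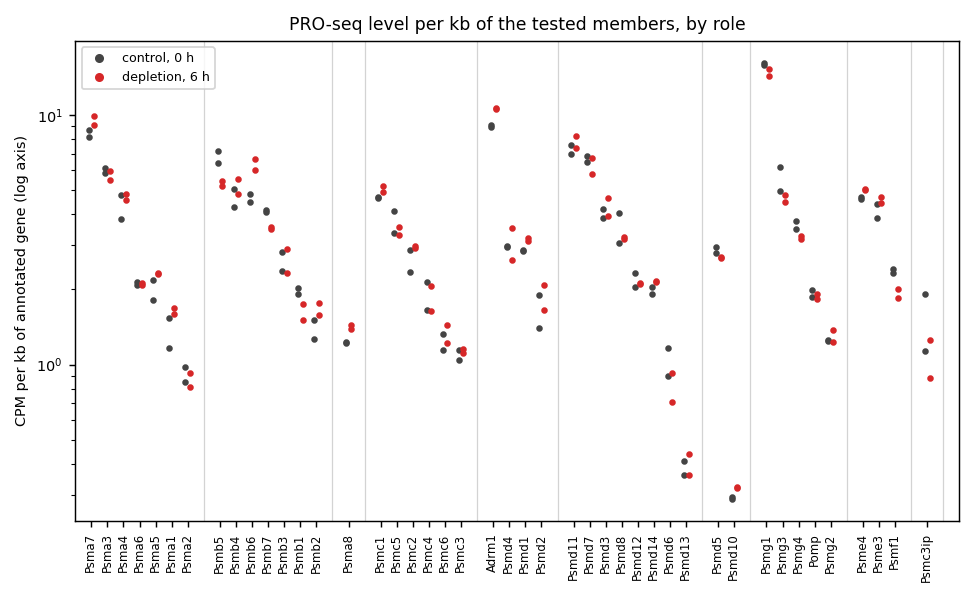
Control (dark) and depletion (red) levels in CPM per kb of annotated gene (y axis, log scale) of the 44 tested genes (x axis), grouped by role in the order alpha ring, beta ring, Psma8, ATPases, other base genes, lid, 19S chaperones, 20S chaperones, activators and inhibitor, Psmc3ip, with 1 point per library. Levels span 54.7-fold in the controls, and the red and dark points of a gene lie close together on this scale.

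The group is made of genes shorter than most in the table, with a median annotated length of 12.4 kb beside 20.7 kb. This bears on the comparison, because over all genes the log2 fold change was higher in longer genes, with a Spearman correlation of 0.271 across 11844 genes. Within the group the correlation was 0.055 across 44 genes; both are descriptions across genes that share their libraries. With offsets that remove a smooth trend of counts on length, the members' median was 0.07, and Psmb7 kept its call. Among the tested genes shorter than 4 kb, Psmb4 and Psmb6 lay above 0 and Psmb5, Psmg3 and Psmc3ip below it.

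**Figure D4:**
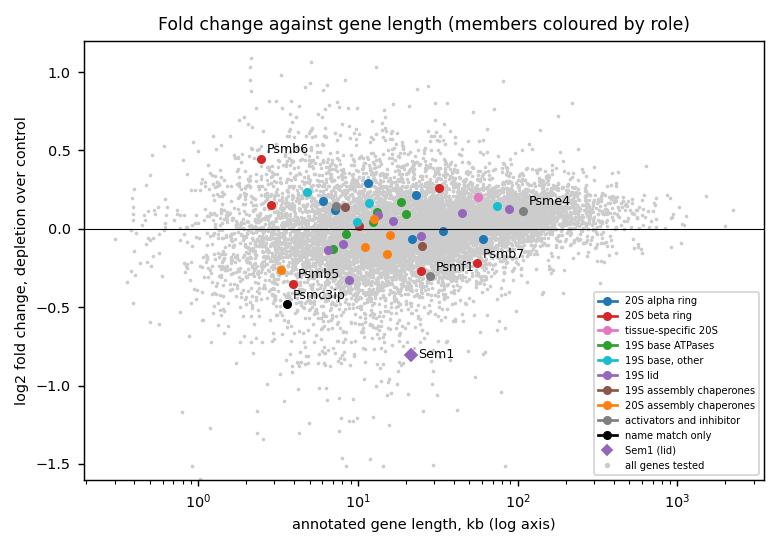
Log2 fold change (depletion over control, y axis) against annotated gene length in kb (x axis, log scale) for the tested proteasome genes, coloured by role, for Sem1 (diamond) and for all genes tested (grey). 23 genes lie outside the plotted range of -1.6 to 1.2. The short genes Psmb5 and Psmb6 lie on opposite sides of 0, and Sem1 lies below every proteasome gene of the group.

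The genes lay on 16 chromosomes, with 9 of them on chromosome 11. Of the 49, 8 (16.3%) had a protein-coding gene that starts within 1000 bp and runs the other way, beside 11.98% of the genes matched to the annotation. These neighbours were Atg4a (of Psmd10), Dnajc2 (Psmc2), Ftsj3 (Psmc5), Mrpl32 (Psma2), Ss18l1 (Psma7), Cep76 (Psmg2), Tbp (Psmb1) and Rnf31 (Psme2). PRO-seq keeps the strand, so that reads of such neighbours are counted apart. A protein-coding gene model overlaps Psmd1, Psma2 and Psmg3 on the same strand, and the reads of these 3 genes could have been divided or shared in the counting.

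Promoters were examined in RefSeq windows of 250 bases before to 50 bases after a start, which were given for 41 of the 49 genes, all but Psma8, Psmb1, Psmb2, Psmb7, Psmc3, Psmd3, Psmd7 and Psmg2. Motifs were searched on both strands. The antioxidant response element core TGACNNNGC was in the windows of 7 genes (17.1%: Adrm1, Psmb5, Psmb6, Psmc6, Psmd12, Psmd9 and Psme4), beside 16.9% of the 9724 genes of the table with a window and 12.4% of all 32851 windows. CCAAT was in 39.0% beside 43.1% of genes, GGGCGG in 58.5% beside 69.0%, and the site of nuclear respiratory factor 1 (a factor other than Nfe2l1) in 4.9% beside 2.4%. CCGGAAG, the site that ETS factors share, was in 17 of the 41 (41.5%), beside 20.4% of genes and 8.9% of all windows. Genes with several windows have more chances to hold a match. The shares of proteasome genes and of genes count a gene once over all its windows. The share of windows is taken over all windows given, not only those of genes in the count table. It is therefore in a different unit, and no share was corrected for the number of windows of a gene.

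The ETS site was the motif whose share among the proteasome genes lay furthest above that of all genes, and it was found in genes of the alpha ring, the base, the lid, the core chaperones and the activators: Psma6, Psmc1, Psmc2, Psmc6, Psmd2, Psmd4, Adrm1, Psmd6, Psmd11, Psmd12, Psmd13, Psme3, Psme4, Pomp, Psmg1 and Psmg3, and in Psmc3ip. The following stretches show it, in capitals, in a core chaperone gene, an ATPase gene and a receptor gene, with GRCm38.p6 coordinates.
Pomp, chr5:147860561-147860590, plus strand: cctggCCGGAAGgacgcaCTTCCGGcggat
Psmc2, chr5:21785186-21785215, plus strand: gagcaCTTCCGGgatggggctcgcacggcg
Psmd4, chr3:95042715-95042744, minus strand: ctgttCCGGAAGctgctgcgaaggtagcca
In Pomp the site occurs on both strands, 62 to 56 and 49 to 43 bases before the start. In Psmc2 it lies on the opposite strand, 84 to 78 bases before the start, and in Psmd4 on the gene's strand, 125 to 119 bases before it. None of the 17 genes was called in the comparison, beside 1.4% of all genes tested called lower and 1.11% called higher. Nor was any of the 41 genes with a window, since Psmb7, the only gene called, had none. The calls therefore say nothing of the site. The windows used RefSeq starts, which can differ from the start sites the authors corrected.

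The genes that act on or with the proteasome were followed as 3 lists. The 29 symbols listed, older names of the same genes among them, matched 25 genes of the table, all tested. At an adjusted p under 0.05, 1 was lower (Sem1, beside 1.4% of all genes tested) and 0 were higher (beside 1.11%), and 0 were called at 2-fold. At an unadjusted p under 0.05 in edgeR there were 6 of the 25 (Sem1, Ipo9, Nfe2l2, Nfe2l3, Fbxo7 and Midn), beside 16.2% of all genes, and the median of the 25 was -0.01, with 13 below 0. The 5 genes that control the transcription of proteasome genes had a median of -0.07 and no call. Nfe2l1 had 261 and 241 counts at 0 h and 410 and 382 at 6 h, a log2 fold change of -0.07 (edgeR's quasi-likelihood test, adjusted p = 0.778) that changed sign without control replicate 1. Its paralogue Nfe2l3 had 43 and 47 counts against 104 and 107, with both depletion libraries above the controls and a log2 fold change of 0.50 (adjusted p = 0.138). Ddi2 and Ngly1, which process Nfe2l1 into its active form, had log2 fold changes of -0.09 and 0.05.

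Among the genes for the delivery of ubiquitinated proteins, the shuttle factors Ubqln1, Ubqln2 and Ubqln4 and the unfoldase Vcp with its cofactors Ufd1 and Nploc4 had log2 fold changes between -0.05 (Ubqln2) and 0.15 (Vcp), and none of these was called. The 12 proteasome-associated genes had a median of -0.08. After Sem1 the lowest was Ipo9, an importin that carries proteasomes into the nucleus, with 204 and 221 counts at 0 h and 272 and 285 at 6 h. Its depletion libraries lay below the controls after scaling, with a log2 fold change of -0.34 that missed the threshold (edgeR's quasi-likelihood test, adjusted p = 0.0734). Akirin2, the adaptor that links proteasomes to Ipo9, had a log2 fold change of -0.10, and Usp14 and Uchl5, the deubiquitinases that visit the cap, 0.07 and -0.14.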

How the data were processed

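PRO-seq counts of 4 libraries were used. According to the study's methods, the authors removed adapters (cutadapt 1.18), mapped reads to mm10 with Bowtie 1.2.2, kept uniquely placed reads, collapsed them by molecular identifier and counted the final base of each nascent RNA per gene, on its strand, over Ensembl transcripts with CAGE-corrected starts. The deposited counts are whole numbers and not normalized. Uniquely placed reads undercount genes with near-identical copies. The second deposited table is the authors' DESeq2 comparison. Its fold changes and p-values were not used. Only its mean normalized signal (baseMean), deposited by the authors, served to recover size factors (0.699, 0.740, 1.32 and 1.24), whose derivation was not resolved: they differ between replicates, whereas the study's methods describe a common spike-in factor for the replicates of a condition.

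Genes were filtered with filterByExpr (minimum count 10, minimum total 15), which removed 633 and left 11853. The test was edgeR 4.0.16 (R 4.3.3; TMM, glmQLFit, glmQLFTest, two-sided, condition only), with Benjamini-Hochberg adjustment over these genes. Standard errors follow from the F statistic, and 95% intervals use the moderated degrees of freedom. With 2 against 2 libraries no exact permutation test could pass the threshold. Alternatives were other scalings, DESeq2 1.42.0, limma-voom (limma 3.58.1), filters, a replicate block, a length trend and leaving out each library. The scripts were tested on simulated data.

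Genes were described in every library by rule: those with an adjusted p under 0.05, the 12 smallest p, the 3 largest changes each way, and chosen subunits, receptors and regulators; others are named within their role. The genes and lists were chosen with earlier results of these data known. Gene positions came from GENCODE M21 (12474 of 12486 identifiers matched, all 49 proteasome genes among them), and promoters from RefSeq on GRCm38.p6, read with Python 3.11.15. Replicate numbers were not used to pair the libraries. The correlation of deviations between conditions was 0.0383, but counting noise can hide a pairing, so whether they are paired is unknown. Comparison of subunit proteins was not run. The values of some listed genes are not reported here.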

Additional observations from a re-analysis of the deposited data

How the results depend on the processing

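The count of proteasome genes called higher, 0, and of those called at 2-fold, 0, did not move under any run that kept all 4 libraries. In edgeR with TMM 1.11% of all genes were called higher and 0.321% at 2-fold. Counts of 0 among 44 genes are near these shares, so their staying at 0 is no check of stability. The count called lower, 1, was 3 with the recovered size factors (Psmb1, Psmb7 and Psmf1), under which 698 genes of all tested were lower and 49 higher. It was 0 in DESeq2, which tested the same genes (61 lower and 14 higher among all genes, beside 166 and 132 in edgeR). Without each library in turn Psmb7 lost its call, with log2 fold changes between -0.23 and -0.21. The median log2 fold change of the proteasome genes was -0.0563 with the recovered size factors. When a library was left out it lay between -0.0227 (without depletion replicate 1) and 0.0625. The log2 ratio of the summed CPM was -0.0002 with column totals, -0.0691 with the recovered size factors and 0.0217 to 0.0479 when a library was left out; it was not run with the length trend removed. With the replicate number as a block, 2 proteasome genes were lower (Psmb7 and Psmf1), and among all genes 300 were lower and 366 higher. The labels name no source that the numbers share, and the correlation of deviations was 0.0383, which cannot exclude a pairing. Whether the libraries are paired is unknown, so this is not given as a paired result. Among single genes, Psmd4 reversed to -0.0575 with the recovered size factors. Leaving out a library, Psmd4 ranged from -0.186 (without depletion replicate 1) to 0.239, Nfe2l1 from -0.197 to 0.0573 (without control replicate 1) and Pomp from -0.0866 to 0.0154 (without control replicate 2). Of the other values for single genes 269 kept their direction and side of the threshold, 5 no longer passed it, all of them for Psmb7, and 4 newly passed it, for Psmb1, Psmf1 and Zfp574. Zfp574 was at 0.57 (edgeR's quasi-likelihood test, adjusted p = 0.0293) without control replicate 2. Why these values moved was not tested. Fits that leave out a library assume that the lone library of a group varies like the other group.

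Depth limits what can be said of Psmb9, Psmb10, Psmb11, Psmd9 and Psme2, which were not tested, and of the 12 tested genes whose intervals reach beyond 0.5 on the log2 scale in either direction (Psmd10, Psmd2, Psmd13, Psmd6, Psma1, Psmg3, Psmb1, Psmb4, Psmb5, Psmb6, Psmf1 and Psmc3ip). With 2 libraries a condition, changes of the size seen for most of these genes cannot be told from 0.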
